A study of Mus musculus with 2 samples.

Results

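The cytosolic ribosomal protein genes were described in bone marrow progenitors of mice, as they stood in 1 library of Phf6 wild-type (WT) cells and 1 library of Phf6 knockout (KO) cells. Members were all genes whose symbols start with Rps, Rpl or Rplp and a digit, and Rpsa, without symbols that contain -ps. The rule took 96 of the 32285 genes in the matrices. Of these, 77 encode proteins of the ribosome itself and are called core members here, 31 of the small and 46 of the large subunit, with the stalk counted in the large one. The other 19 match the symbol rule but are not counted as core here: 7 paralogs of core members, 10 kinases of the ribosomal S6 kinase group and 2 other proteins. All 77 core members, and 89 of the 96, had a mean of at least 10 counts per 1000000 UMIs (CPM, where a UMI is 1 counted RNA molecule).

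A ribosome is built from a small subunit that decodes the message and a large subunit that forms peptide bonds, each made of ribosomal RNA and a set of proteins present mostly in 1 copy. The genes of these proteins are transcribed strongly in dividing cells, and most of their messages open with a pyrimidine tract (the 5′ terminal oligopyrimidine, or TOP, motif) through which mTOR signalling controls their translation. Blood formation is known to be sensitive to them: loss of a single copy of several members causes Diamond-Blackfan anaemia, a failure of red cell production.

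Donor cells of both genotypes had received a vector that carries the RUNX1 mutant S291fs together with GFP, so the WT library is wild-type for Phf6 and not free of a leukaemia-associated gene. At 8 weeks after transplant, cells with GFP and without lineage markers (Lin-) were taken from recipient marrow by sorting, and their RNA was counted from its 3′ end. The age of the mice and how many gave cells to each library are not given in the sources used here. The comparison asks what loss of Phf6, which encodes a chromatin protein mutated in leukaemia, changes in cells that already carry the RUNX1 mutant. With 1 library per genotype there is no error between mice and no p-value, and every interval below covers counting error only, at 95%. Intervals on UMI shares and ratios treat UMIs as independent and leave out the spread between cells.

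The WT library held 4478 cells after filtering, with a median of 24798 UMIs, and the KO library 4709 cells with a median of 21434. Mitochondrial genes took 2.73% and 2.99% of UMIs. Phf6 stood at 41.8 CPM in WT and 20.6 CPM in KO, a log2 ratio of -1.02 (interval -1.09 to -0.95). Which stretch was deleted is not known here, and 3′ UMIs from outside it do not check the knockout. Between the libraries 10 cell barcodes were shared. Classes of cells were rebuilt from fixed markers and carry the ending "like", and 1229 WT and 1407 KO cells stayed unnamed. Although the sort removed lineage-positive cells, 141 WT and 64 KO cells fell into B cell-like, plasma cell-like or T or NK cell-like classes.

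The start sites of some members named in the results below are shown first, because several of these genes are near copies of each other. A TOP tract, where present, begins at the first base of the message. Each line gives 30 bases, 15 before and 15 from the annotated start on, 5′ to 3′ in the direction of the gene, from RefSeq on build GRCm38.p6. The capitals mark the longest run of C and T that opens with C, wherever it lies in the 30 bases. With the annotated start as position 1, the run opens at -12 at Rps27l, -9 at Rpl6, -7 at Rpl39l and 7 at Rpl39. A marked run thus need not be a TOP tract.
Rps27 (chr3:90213634-90213663, minus strand): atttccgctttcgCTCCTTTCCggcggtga
Rps27rt (chr9:114982725-114982754, minus strand): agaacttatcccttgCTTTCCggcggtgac
Rps27l (chr9:66946071-66946100, plus strand): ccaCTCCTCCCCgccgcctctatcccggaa
Rpl39 (chrX:37085208-37085237, minus strand): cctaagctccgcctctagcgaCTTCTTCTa
Rpl39l (chr16:10170213-10170242, plus strand): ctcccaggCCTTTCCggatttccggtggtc
Rpl35 (chr2:39005117-39005146, minus strand): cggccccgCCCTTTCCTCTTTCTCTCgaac
Rpl6 (chr5:121204486-121204515, plus strand): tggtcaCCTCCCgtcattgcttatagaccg
Rps2 (chr17:24720048-24720077, plus strand): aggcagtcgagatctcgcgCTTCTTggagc

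The run was 18 bases long at Rpl35, the longest of those shown, and 9 bases at Rps27. Among starts not shown, it was 3 bases at Rps15 and at Rpl41, which like Rpl35 were among the core members lowest in KO. At Rps19, the highest in KO, it was 3, 4 and 7 bases at its annotated starts, and at a second start of Rps27l 4 bases. A relation of run length to the KO ratio was not tested. At Rps27rt and Rpl39l it was 6 and 7 bases. Start sites were matched for 57 of the 77 core members. A run of at least 8 such bases on the gene's strand, within 40 bases around a start, was present for 28 of these 57 genes (49.1%) and for 14.5% of all 27025 genes in the table. The letters CTTTC occurred on the gene's strand in the same window for 18 of the 57 (31.6%, against 6.44% of all genes), and on either strand for 36.8% against 11.8%. Annotated starts can miss the base at which transcription begins, and a match is a description of letters only.

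In both libraries the core members were a large part of all UMIs, and their share differed by lineage. Over all cells they took 27.3% of WT UMIs and 26.4% of KO UMIs. Neutrophil progenitor-like cells stood highest among the 5 classes with at least 200 cells in each library, at 30.1% (WT, interval 30.1 to 30.1) and 28.5% (KO, 28.5 to 28.5). Megakaryocyte-like cells stood lowest, at 19.8% (WT, 19.8 to 19.9) and 17.2% (KO, 17.2 to 17.3). The difference between these classes was 10.2 points in WT and 11.3 points in KO.

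Between these ends, HSC/MPP-like cells, which resemble haematopoietic stem and multipotent progenitors, stood at 29.4% in WT and 28.2% in KO. Lymphoid progenitor-like cells had 27.7% and 26.2%, and monocyte-like cells 25.2% and 25.1%. The lymphoid name rests on 3 detected markers with Dntt among the leading genes, and markers of HSC/MPP cells were also detected in that cluster. The 5 classes kept 1 order in both libraries.

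Among the smaller classes, the 269 WT and 97 KO erythroid-like cells had 28.9% and 28.2%. The share was 25.4% and 23.04% in 163 and 127 basophil or mast cell-like cells, and 24.2% and 22.9% in 71 and 86 cells of the dendritic class. In 66 WT and 48 KO B cell-like cells it was lower, at 20.8% and 22.05%, with a median depth of only 4824 and 5708 UMIs per cell. The 52 plasma cell-like cells, all from the WT library, stood at 9.64% (9.60 to 9.69) with a median of 32388 UMIs. Plasma cell-like cells thus had the smallest core share of the named classes, at a depth above the median of the library. Their totals include immunoglobulin UMIs, with Jchain, Igkc, Igha and Ighm as the leading genes. A share without these UMIs was not calculated for this class. The median number of core UMIs per cell was 2738, against 833 in WT B cell-like cells and 6642 over all WT cells. The eosinophil-like class, 22 WT cells and 1 KO cell, had 27.2% in WT.

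**Figure D1:**
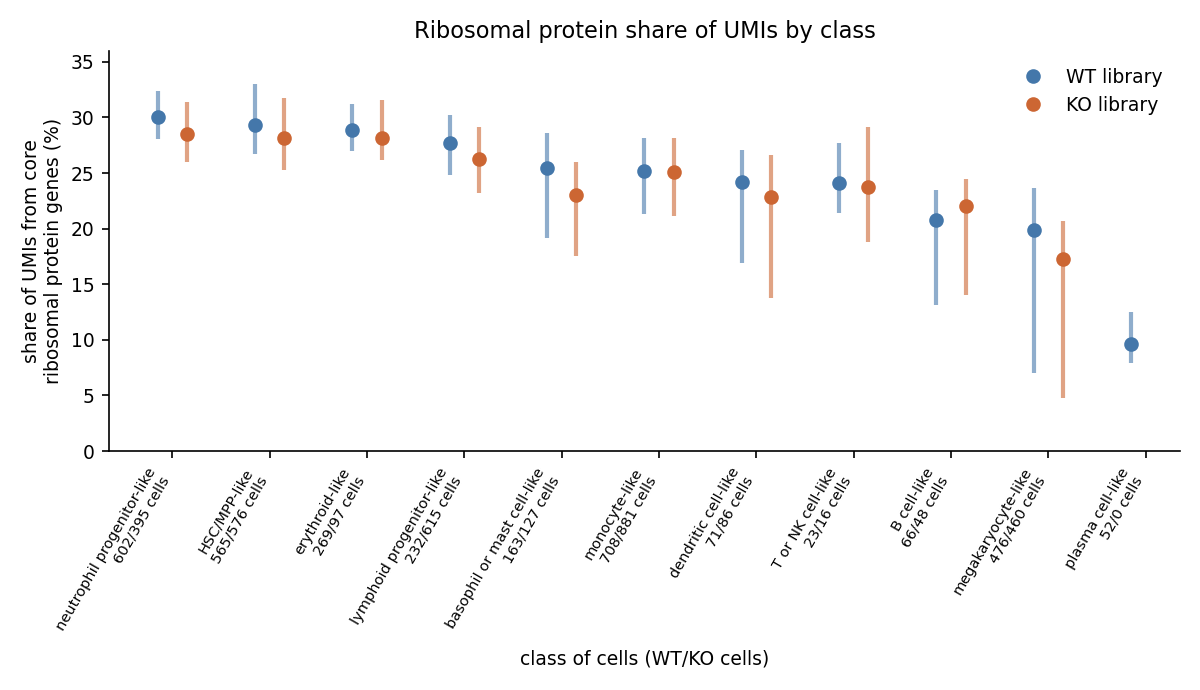
Share of UMIs from the 77 core members (vertical axis, percent) by class of cells, with dots for the summed share in the WT and KO libraries and bars for the quartiles over single cells. Neutrophil progenitor-like cells stand at 30.1% and 28.5%, megakaryocyte-like cells at 19.8% and 17.2%, and plasma cell-like cells, present in WT alone, at 9.64%.

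Within the megakaryocyte-like class the share differed by cluster, and 1 cluster had very little ribosomal protein RNA. Clusters 5 and 20, led by Ppbp and Pf4, had 21.2% and 19.7% in WT and 18.7% and 17.0% in KO. Cluster 13, led by the platelet genes Slc6a4, Tubb1 and Gp6, held 115 WT and 119 KO cells. Its summed core share was 5.22% in WT (5.17 to 5.28) and 3.11% in KO (3.07 to 3.15). The median over its cells went the other way, at 2.39% in WT and 2.50% in KO, so the lower sum in KO is not that of the typical cell. Its mitochondrial share was 0.979% and 0.673%, and its median depth 3540 and 5066 UMIs. Cluster 23, led by Gpc5 and with the p53 target genes Mdm2 and Cdkn1a among its top genes, stood at 5.14% and 4.99% with under 2000 UMIs per cell in the median (1756 WT, 1895 KO).

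Cells with under 10% core UMIs numbered 285 in WT (6.36%, 5.67 to 7.12) and 283 in KO (6.01%, 5.35 to 6.73), intervals that overlap. Their median depth was 3321 and 4966 UMIs, against 25564 and 22465 for the other cells. Cluster 13 held 110 of these WT cells and 119 of these KO cells. At the upper end, cluster 3, led by Cpa3 and Ccl9 and left unnamed, had the highest share of any cluster with at least 50 cells in each library, 31.6% in WT and 31.9% in KO.

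The balance of the subunits also differed by lineage. UMIs of small subunit members per UMI of large subunit members stood at 0.824 in WT and 0.825 in KO over all cells. Megakaryocyte-like cells had 0.770 and 0.753 and erythroid-like cells 0.777 and 0.786, the lowest values of the named classes that held at least 50 cells in each library. Neutrophil progenitor-like cells had 0.850 and 0.852. A difference in UMIs per subunit is one of RNA and says nothing of assembled subunits.

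Levels of single core members lay within a narrow range. A 3′ count gives 1 UMI per captured molecule whatever its length, but capture and unique mapping differ between genes, so the order of levels is that of counted UMIs. The median core member stood at 3500 CPM in WT and 3381 CPM in KO. Rps24, a small subunit protein mutated in Diamond-Blackfan anaemia, was highest in both libraries at 6376 and 6453 CPM, followed by Rpl13 at 6374 and 6346 CPM.

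Rpl4, a large subunit protein at the exit tunnel, was lowest at 1309 and 1241 CPM, followed by Rpl31 at 1333 and 1248 and Rpl7a at 1710 and 1620 CPM. The highest core member thus stood 4.87 times above the lowest in WT and 5.20 times in KO. The order was nearly the same in both libraries (Spearman's rho 0.995 across 77 genes, which are not independent replicates).

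Core members were lower in KO as a group, by a small amount. Summed over members, KO over WT gave a log2 ratio of -0.046 (-0.046 to -0.045), and 67 of 77 members lay below 0, with a median of -0.039 and a range of -0.25 to 0.07. The median over all 8585 genes with at least 10 CPM was 0.06, and 76 of the 77 core members lay below it. The median was -0.039 for the 31 small subunit members and -0.041 for the 46 large subunit members. Scaling that centres genes near 0 lowered the summed ratio, to -0.11 with edgeR's TMM factors and -0.13 with a median of ratios, and weighting the 5 classes alike gave -0.077.

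None of the 77 core members passed a 1.5-fold difference in either direction, where 2.03% of all genes were higher and 1.23% lower by that much. None passed 1.2-fold, where 15% of all genes were higher and 5.77% lower. With TMM scaling, with a median of ratios or with classes weighted alike, 1 core member, Rpl35, passed 1.2-fold downward.

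Rpl35 (GRCm38 chromosome 2, 39001580 to 39005624, minus strand), a large subunit protein beside the exit tunnel and a Diamond-Blackfan gene, was the lowest of the core members. It stood at 2161 CPM in WT and 1819 CPM in KO, a log2 ratio of -0.25 (-0.26 to -0.24). In KO it was lower in all 20 clusters that held 50 or more cells of each library. Against the median core member of each cluster it lay lower by 0.14 to 0.23 on the log2 scale in all 20.

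Rps15 went from 2311 CPM in WT to 2048 CPM in KO (-0.17), and Rpl6 from 3500 to 3104 CPM (-0.17). Rps15 encodes a protein of the small subunit's head and Rpl6 one of the large subunit. Rpl6 lay below the core median in 20 of 20 clusters and Rps15 in 19. Rpl41, the shortest ribosomal protein, went from 4339 to 3941 CPM (-0.14) and Rpl5, which carries 5S RNA into the ribosome, from 2034 to 1863 CPM (-0.13). None of these differences reached 1.2-fold.

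At the other end Rps19 (chromosome 7, 24884371 to 24889806, plus strand), the most often mutated Diamond-Blackfan gene, stood at 4283 CPM in WT and 4490 CPM in KO, a log2 ratio of 0.07 (0.06 to 0.07). Rps20 went from 5160 to 5307 CPM (0.04) and Rpl39 from 4169 to 4274 CPM (0.036). Rps9 (3779 and 3841 CPM) and Rpl23 (5299 and 5375 CPM) each had a log2 ratio of 0.02. All 5 of these signs turned in 1 or more alternatives: Rps19 with a median of ratios and with classes weighted alike, Rps20 with TMM and a median of ratios, and the other 3 with both scalings and with classes or clusters weighted alike. Relative to the other core members, Rpl26 and Rpl19 lay above the core median in 20 of 20 clusters and Rps20 in 19.

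**Figure D2:**
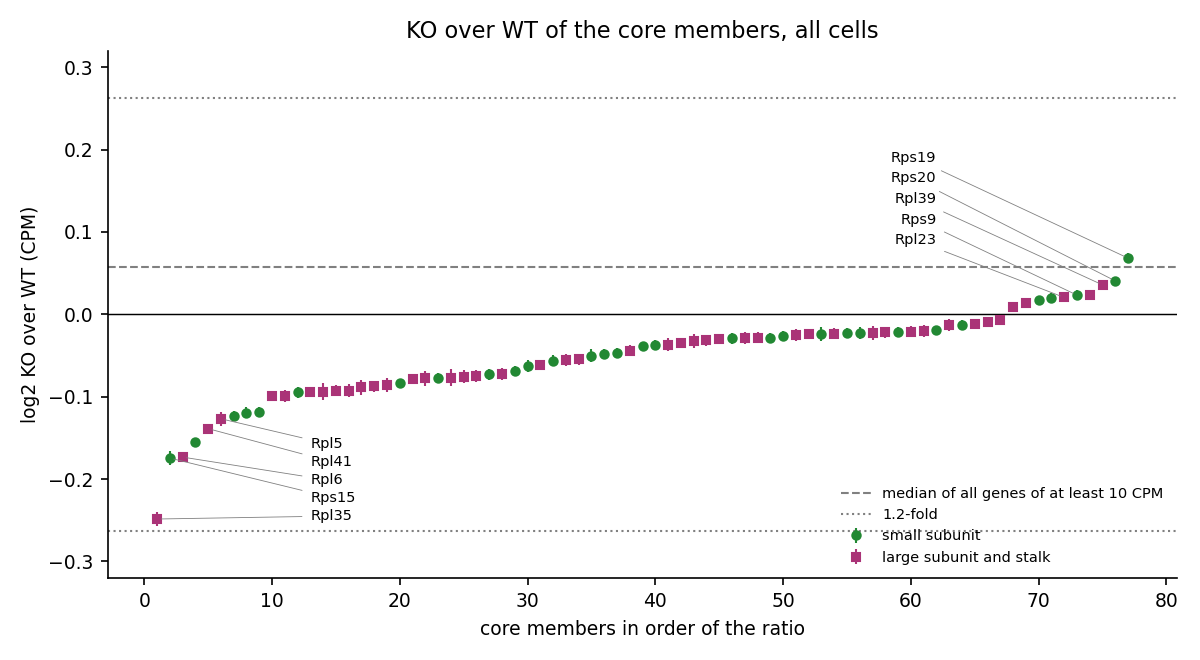
Log2 ratio of KO over WT in CPM (vertical axis) for the 77 core members in order of the ratio (horizontal axis), over all cells, with exact intervals for counting error as bars, a dashed line at the median of all genes with at least 10 CPM (0.06) and dotted lines at 1.2-fold. The members run from Rpl35 at -0.25 to Rps19 at 0.07, and none crosses a dotted line.

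Within classes the size of the KO difference varied with lineage. Megakaryocyte-like cells had the largest drop of the 5 classes with at least 200 cells per library, with a summed log2 ratio of -0.20 (-0.21 to -0.20) and 77 of 77 core members below 0. At 1.2-fold, 11 core members were lower and 0 higher, where 7.18% of all genes in these cells were lower and 14% higher. In this and the other classes, the all-gene shares include genes with far fewer UMIs than core members. Such genes can pass 1.2-fold by counting error alone, and how much of the shares this makes up was not tested. The shares are thus no measure of how stable core members are. Without cluster 13, the one of low depth, the summed ratio was -0.19, a value likewise added once the others were known. Rpl35 (1493 CPM in WT, 1131 in KO, -0.40) and Rps21 (2218 and 1754 CPM, -0.34) were lowest, and Rpl24 (1788 and 1669 CPM, -0.10) and Rpl21 (2650 and 2425 CPM, -0.13) highest.

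In HSC/MPP-like cells the summed log2 ratio was -0.059 (-0.061 to -0.056), with 66 of 77 core members below 0. The class joins cluster 2, led by Mecom and Hlf, and cluster 8, led by Fgf3 and Ddah2, which had different shares and sizes. Cluster 2 held 255 WT and 364 KO cells at 26.9% and 26.4%, and cluster 8 held 310 WT and 212 KO cells at 31.4% and 31.3%. When both clusters counted equally, a weighting added once the values were known, the class ratio was -0.012. At 1.2-fold, 1 core member was lower and 0 higher, where 9.08% of all genes were lower and 21.7% higher. That member was Rpl35 (2209 and 1829 CPM, -0.27), followed by Rps15 (2513 and 2117 CPM, -0.25). Rps24 (7737 and 8058 CPM) and Rps9 (4255 and 4421 CPM) stood highest, each at 0.06.

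Lymphoid progenitor-like cells, 232 in WT and 615 in KO, had a summed ratio of -0.078 (-0.082 to -0.075) with 72 of 77 members below 0. At 1.2-fold, 1 core member was lower and 0 higher, where 9.88% of all genes were lower and 19.8% higher. These shares, too, include genes of few UMIs, which counting error alone can carry past 1.2-fold. Rpl35 (2024 and 1653 CPM, -0.29) and Rps15 (2143 and 1807 CPM, -0.25) were lowest and Rpl21 (3070 and 3276 CPM, 0.09) and Rps24 (8013 and 8177 CPM, 0.03) highest. With classes called by a marker score per cell the summed ratio was -0.027.

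Monocyte-like cells hardly differed between libraries, at -0.0052 (-0.0069 to -0.0035), with 39 of 77 core members below 0. At 1.2-fold, 0 core members were lower or higher, where 4.26% of all genes were lower and 6.44% higher. With the stricter cell filter the sum turned to 0.0042. Rpl35 (2006 and 1798 CPM, -0.16) and Rpl10 (2807 and 2549 CPM, -0.14), which joins the large subunit late in assembly, were lowest. Rps18 (3808 and 4062 CPM) and Rpl14 (1984 and 2107 CPM) were highest, at 0.09 each.

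Neutrophil progenitor-like cells had a summed ratio of -0.076 (-0.078 to -0.074), with 70 of 77 members below 0. At 1.2-fold, 1 core member was lower and 0 higher, where 11% of all genes were lower and 5.98% higher. Rpl35 (2449 and 2035 CPM, -0.27) and Rpl6 (3815 and 3331 CPM, -0.20) were lowest, and Rpl23a (1866 and 1928 CPM, 0.05) was among the highest. In this class the median of all genes was itself -0.035, and 57 of the 77 core members lay below it. TMM scaling moved the summed ratio to -0.031.

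Of the smaller classes, basophil or mast cell-like cells had a summed ratio of -0.14, dendritic cell-like cells -0.084, erythroid-like cells -0.035 and T or NK cell-like cells -0.022. B cell-like cells had 0.087 (0.072 to 0.10). Of the same 20 clusters, 18 had a lower sum in KO, and the interval lay below 0 in 17 and above 0 in 1, which was cluster 3 at 0.011. The summed share of cluster 3 differed by 0.235 points. Its single cells had an SD of 4.38 points in WT and 4.29 in KO, which the interval leaves out. The side of 0 on which an interval lies is thus no measure of cell-to-cell spread. The median over the 20 clusters was -0.049. Whether the lower depth of the KO library bears on these ratios was not tested.

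Members of the group moved between classes nearly as 1 block. The CPM of a member was set over its mean across the 5 classes, and the median of that log2 value over core members was taken away, which leaves the departure of the member from the group in a class. No core member departed by 1.5-fold in both libraries in any of the 5 classes. For all genes the departure was taken from the median over all genes instead. By that measure 12.2% of all genes departed in HSC/MPP-like and 19.8% in lymphoid progenitor-like cells. The share was 24.5% in megakaryocyte-like, 24.3% in monocyte-like and 24.4% in neutrophil progenitor-like cells. Core members and all genes are thus not on 1 measure, and the all-gene shares include genes with far fewer UMIs. In megakaryocyte-like cells the core median that was taken away was itself -0.44 in WT and -0.57 in KO. From the lowest to the highest of the 5 classes, the median core member changed 1.60-fold in WT and 1.77-fold in KO, and the median gene 2.04-fold and 2.18-fold. The departures described next are smaller than 1.5-fold unless stated.

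Neutrophil progenitor-like cells had relatively more Rps2, a small subunit protein at the entry of the message channel, with departures of 0.34 in WT and 0.43 in KO and levels of 5251 and 5304 CPM. They had relatively less Rpl13a (-0.42 and -0.35), which also serves outside the ribosome as a translational silencer in myeloid cells, Rpl21 (-0.30 and -0.43) and Rps27 (-0.29 and -0.39). In monocyte-like cells the stalk base protein Rplp0 was relatively high (0.32 and 0.23), and Rpl5 (-0.28 and -0.26), Rpl9 (-0.25 and -0.29) and Rpl13a (-0.22 and -0.26) were relatively low. In both myeloid classes Rpl13a thus lay under the group.

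Megakaryocyte-like cells, where the whole group was low, had relatively more Rpl6 (0.43 and 0.46), Rpl41 (0.40 and 0.47), Rpl13a (0.44 and 0.40) and Rps15 (0.39 and 0.38). HSC/MPP-like cells had relatively less Rpl41 (-0.25 and -0.36) and Rps2 (-0.18 and -0.26), and relatively more Rps14 (0.19 and 0.24), the small subunit gene lost in the 5q- syndrome. Of the core members, in lymphoid progenitor-like cells, Rpl41 (-0.45 and -0.50), Rpl31 (-0.27 and -0.30) and Rps2 (-0.21 and -0.29) were among those furthest under the group.

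Larger departures were found in classes with fewer than 200 cells in a library, where they were picked after their values were seen. The reference mean held only the large classes, so each of those was part of its own reference. This draws their departures toward 0, and sizes cannot be compared directly between large and smaller classes. In erythroid-like cells Rps2 departed by 0.69 in WT and 0.62 in KO, past 1.5-fold in both, at 6411 and 5912 CPM. Rpl14 (0.61 and 0.58) and Rpl41 (0.58 and 0.52) followed, while Rps24 (-0.57 and -0.48) and Rpl39 (-0.54 and -0.47) lay below. Rps24, the most abundant member over all cells, stood at 4877 and 5143 CPM in erythroid-like cells and at 8013 and 8177 CPM in lymphoid progenitor-like cells.

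In B cell-like cells Rps27, a zinc-finger protein of the small subunit, departed by 1.13 in WT and 1.33 in KO, with levels of 3632 and 4372 CPM against 1995 and 1755 CPM in neutrophil progenitor-like cells. Rps2 (-0.65 and -0.86) lay below the group there, also past 1.5-fold. T or NK cell-like cells, only 23 and 16, also had high Rps27, at 1.05 and 0.73. Departures of the 77 members in the 2 libraries correlated at r = 0.94 to 0.97 in the 5 large classes, a description across genes that share the cells and the counting.

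**Figure D3:**
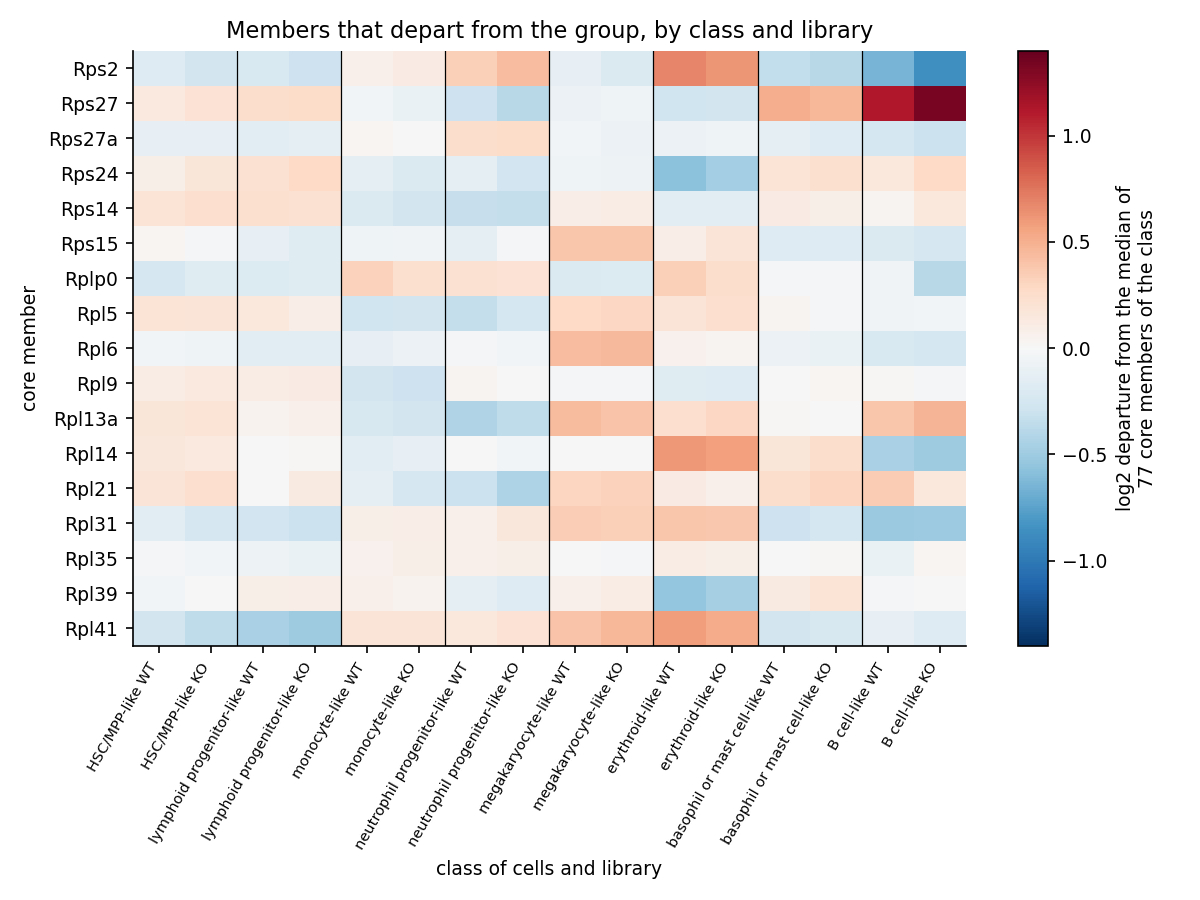
Departure of 17 core members (rows) from the median core member, in log2 units by colour, in 8 classes and in each library (columns). Neighbouring WT and KO columns of a class show like colours: Rps27 is highest in B cell-like cells (1.13 and 1.33), and Rps2, Rpl14 and Rpl41 are high in erythroid-like cells.

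Paralogs of core proteins can take their place in the ribosome, and 3 of the 7 were abundant. Rps27l, which differs from Rps27 in a few residues at its start and is known as a p53 target, stood at 542 CPM in WT and 492 CPM in KO (-0.14). Its share of the UMIs of the pair, which falls by construction where Rps27 is higher, differed by lineage. It was highest in erythroid-like cells, at 31.1% in WT and 28.7% in KO, followed by megakaryocyte-like cells (24.7% and 26.1%) and neutrophil progenitor-like cells (22.8% and 26.5%), whose order turned between libraries. In B cell-like cells it was 4.43% and 3.86%, from 68 and 54 UMIs, and in lymphoid progenitor-like cells 10.5% and 9.93%. The lineage order of this pair was thus far wider than the KO difference, which took either sign by class.

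Rpl36al stood at 1091 CPM in WT and 1026 CPM in KO (-0.088), and made up 35.1% and 34.3% of the UMIs of Rpl36al and Rpl36a. The share was lowest in lymphoid progenitor-like cells (26.9% and 25.6%) and HSC/MPP-like cells (28.1% and 25.9%), and 40.4% in monocyte-like cells of either library. In WT plasma cell-like cells Rpl36al exceeded Rpl36a, with 1674 against 847 UMIs (66.4% of the pair).

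Rpl22l1, the paralog whose level is known to be held down by Rpl22, was even between libraries at 993 and 1001 CPM, a log2 ratio of 0.011 with an interval of -0.0011 to 0.02. Rpl22 itself went from 1949 to 1833 CPM (-0.089). The sign for Rpl22l1 turned with TMM and with a median of ratios. Within the pair, which scaling does not touch, Rpl22l1 made up 33.8% in WT and 35.3% in KO. The share was higher in KO in each of the 5 large classes, with 31.7% and 32.7% in monocyte-like cells and 32.9% and 36.5% in lymphoid progenitor-like cells. B cell-like cells went the other way, with 26.4% and 21.8% from 227 and 163 Rpl22l1 UMIs.

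**Figure D4:**
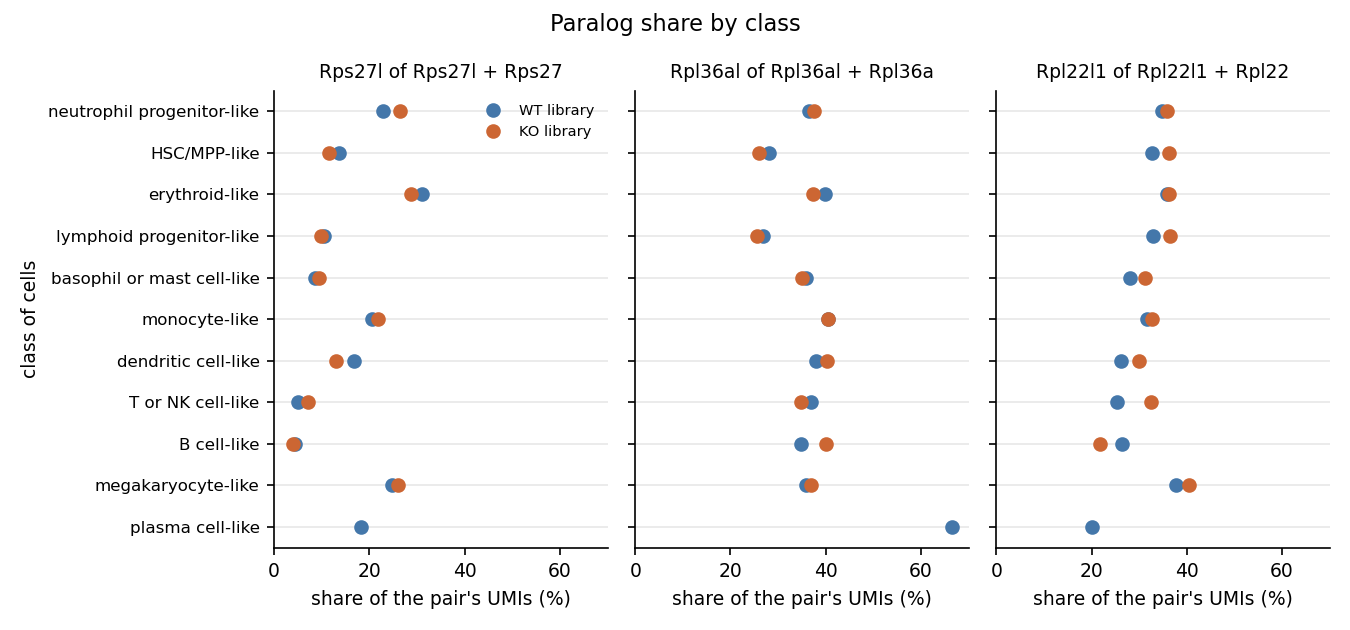
Share of a pair's UMIs that belong to the paralog (horizontal axis, percent) by class of cells, for Rps27l with Rps27, Rpl36al with Rpl36a and Rpl22l1 with Rpl22, with dots for the WT and KO libraries. Rps27l runs from 3.86% in KO B cell-like to 31.1% in WT erythroid-like cells, while Rpl22l1 stays between 20.1% and 40.5%.

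Rps27rt (chromosome 9, 114982366 to 114982739, minus strand) is a copy of Rps27, and its annotated transcript is as long as the gene, with no intron. It stood at 36.4 CPM (35.3 to 37.5) in WT and 54.0 CPM (52.6 to 55.4) in KO, a log2 ratio of 0.57 (0.51 to 0.63), the highest of the members with at least 10 CPM. It was higher in KO in 20 of 20 clusters, while Rps27 itself went from 2107 to 2073 CPM (-0.024). Of the 374 bases of its transcript, 341 align to Rps27 without a mismatch (GENCODE M21), so its UMIs are those a mapper could still tell from Rps27, and the value is uncertain. Rps27 gave 250256 UMIs in WT, against 4319 for Rps27rt.

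Rpl39l (chromosome 16, 10170226 to 10174911, plus strand) is the paralog of Rpl39, known for its use in the ribosomes of male germ cells. It stood at 10.4 CPM (9.87 to 11.0) in WT and 0.299 CPM (0.206 to 0.420) in KO, from 1240 and 33 UMIs, a log2 ratio of -5.13 (-5.67 to -4.63). Its mean lies under 10 CPM, so it does not enter the counts above. Rpl39 in the same libraries was at 4169 and 4274 CPM, and the aligned stretch of the transcripts is 83.7% identical, 154 of 184 positions.

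The Rpl39l UMIs came from few cells, most of them with more than 1 UMI. In WT, 246 of 4478 cells had a UMI, 183 cells had 2 or more (4.09%, 3.53 to 4.71) and 33 had 10 or more, up to 26 in 1 cell. In KO, 5 of 4709 cells had a UMI and 4 had 2 or more (0.0849%, 0.0231 to 0.217).

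The WT cells with 2 or more Rpl39l UMIs were spread over lineages. They made up 6.19% of HSC/MPP-like cells (35 of 565), 4.98% of neutrophil progenitor-like cells (30 of 602), 4.41% of megakaryocyte-like cells (21 of 476), 4.09% of erythroid-like cells (11 of 269) and 3.67% of monocyte-like cells (26 of 708). Lymphoid progenitor-like cells had 6 of 232 (2.59%). The intervals of these 6 classes overlap. Smaller classes with such cells were dendritic cell-like (2 of 71, 2.82%) and eosinophil-like (2 of 22, 9.09%, interval 1.12 to 29.2).

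Basophil or mast cell-like cells had 0 of 163 with 2 or more UMIs and 1 cell with 1 UMI, at a median depth of 12496 UMIs. A limit of 3 cells allows a share of up to 1.84%, and the exact interval reaches 2.24%. B cell-like cells had 0 of 66 (up to 4.55%, exact 5.44%) and plasma cell-like cells 0 of 52 (up to 5.77%, exact 6.85%). These limits are for cells with 2 or more counted UMIs, not for cells that express the gene. Cells were also thinned to 5000 UMIs each, and 243 WT and 198 KO cells were too shallow for this. Of the remaining cells, 3.14% in WT and 0.0665% in KO had an Rpl39l UMI. In the thinned WT cells the share was 4.50% in HSC/MPP-like, 3.54% in neutrophil progenitor-like and 0 of 160 in basophil or mast cell-like cells.

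A few genes of the same chromosome were looked at after the Rpl39l values were seen, among them Atf7ip2, which starts 17.8 kb beyond the end of Rpl39l on the same strand. Atf7ip2 had 17 UMIs in the 183 WT cells with 2 or more Rpl39l UMIs and 6 UMIs in the 4232 WT cells with none, a log2 ratio of 5.81 (4.4 to 7.4). Usp7 and Nubp1, farther off on the same chromosome, stood at -0.026 (-0.16 to 0.11) and -0.033 (-0.20 to 0.13) in the same comparison. The summed core members were at 27.1% and 27.3% of UMIs in these cells, and Rpl39 at 4111 and 4173 CPM. What sets these cells apart from the others was not tested.

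**Figure D5:**
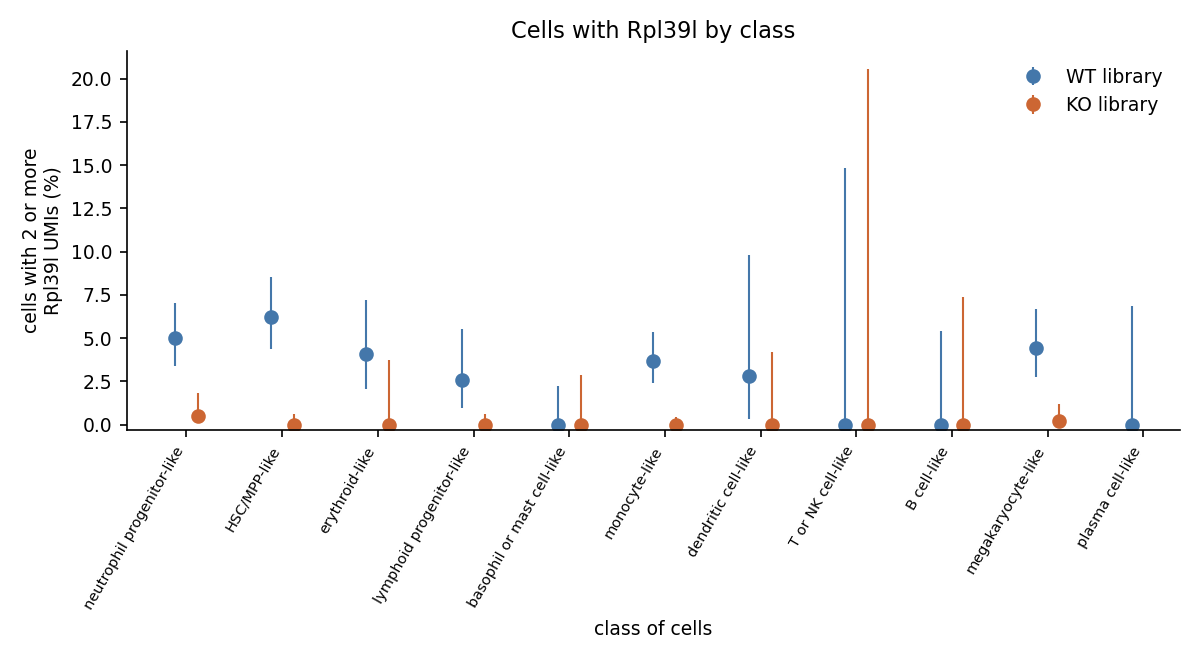
Share of cells with 2 or more Rpl39l UMIs (vertical axis, percent) by class of cells in the WT and KO libraries, with exact binomial intervals for counting error as bars. In WT the share lies between 2.59% and 6.19% in the 6 classes with at least 200 WT cells, and in KO no class exceeds 0.506%.

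Of the remaining paralogs, Rpl3l, a muscle form of Rpl3, was at 0.455 and 0.462 CPM (54 and 51 UMIs), and Rpl10l, a testis form of Rpl10, had 0 UMIs in both libraries. Rpl7l1, a protein related to Rpl7 that acts in ribosome assembly, went from 99.7 to 93.7 CPM (-0.090). Rps19bp1, a nucleolar binding partner of Rps19, had 5935 and 5036 UMIs (-0.13).

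The kinases caught by the symbol rule are not parts of the ribosome, and their pattern differed from that of the core. They phosphorylate ribosomal protein S6 or belong to the same family. Rps6ka3 (RSK2, a kinase downstream of ERK) went from 79.8 to 111 CPM (0.47, 0.44 to 0.51) and was higher in KO in 18 of 20 clusters. Rps6ka5 (MSK1, a histone kinase) went from 151 to 191 CPM (0.34, 0.31 to 0.37). It was higher in 13 of 20 clusters, and its ratio was 0.09 with the 5 classes weighted alike, 0.12 with clusters weighted alike and 0.26 with a median of ratios, all under 1.2-fold.

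With Rps27rt, these are the 3 of 12 members outside the core with at least 10 CPM that passed 1.2-fold, all upward, where 15% of all genes were higher and 5.77% lower. Rps6ka3 was at 0.25, under 1.2-fold, with clusters weighted alike. Rps6kb1 (p70 S6 kinase, an effector of mTOR) went from 60.7 to 67.5 CPM (0.15) and was higher in 19 of 20 clusters. Rps6ka1 went from 63.9 to 70.8 CPM (0.15) and Rps6kc1 from 8.99 to 10.8 CPM (0.26). Rps6kb2 went from 10.3 to 9.97 CPM (-0.052), with an interval of -0.17 to 0.07. The sign turned with clusters weighted alike for Rps6ka1, and with means over cells or classes or clusters weighted alike for Rps6kb2.

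Lineage differences among the kinases exceeded those between libraries. In neutrophil progenitor-like cells Rps6ka2 reached 61.8 CPM (WT) and 55.1 CPM (KO), and in lymphoid progenitor-like cells 1.12 and 2.18 CPM. Over all cells it was at 20.3 and 19.9 CPM, a log2 ratio of -0.026 (-0.11 to 0.06). Rps6ka5 had the reverse order, with 282 and 309 CPM in lymphoid progenitor-like and 93.6 and 78.2 CPM in neutrophil progenitor-like cells. Rps6ka4 was low throughout (102 and 99 UMIs), Rps6kl1 had 36 and 11 UMIs (-1.60, -2.73 to -0.60) and Rps6ka6 had 2 and 4 UMIs, too few to compare.

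Other genes of the translation machinery were counted beside the members from fixed lists, at 1.2-fold, where 15% of all genes were higher and 5.77% lower. Of ribosomal proteins that the symbol rule misses, Rack1, a scaffold on the small subunit, went from 2186 to 2009 CPM (-0.12) and Fau from 4129 to 4154 CPM (0.0086). Of 16 other messages with a TOP motif, 1 was lower and 0 higher, 15 lay below 0 and the median was -0.11. Npm1, a nucleolar chaperone of ribosome assembly, was lowest, from 1813 to 1470 CPM (-0.30). Hnrnpa1 (-0.24), Nap1l1 (-0.20) and Eef1d (-0.19) followed.

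Of 78 mitochondrial ribosomal proteins, 5 were lower and 0 higher, 72 lay below 0 and the median was -0.17. Mrps18b (56.9 and 42.4 CPM, -0.42) and Mrpl12 (173 and 132 CPM, -0.39) were lowest, then Mrpl19 (-0.34) and Mrpl38 (-0.32). Of 47 measured genes on the list of initiation factors, 5 were lower and 2 higher with a median of -0.14. Eif4a1, the helicase that unwinds the message, went from 689 to 549 CPM (-0.33) and Eif3g from 146 to 115 CPM (-0.34). Eif4ebp3 (0.38) and Eif4e3 (0.34) were higher, and the first of these encodes an eIF4E-binding protein, not an initiation factor.

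Of 11 measured snoRNA host genes, whose own messages also open with pyrimidines, 2 were lower and 0 higher, led by Snhg3 from 115 to 76.7 CPM (-0.59) and Snhg5 from 21.8 to 17.2 CPM (-0.34). Snhg4 stood at -0.26 and Snhg15 at -0.16. Of 12 measured regulators of TOP translation and S6 kinase signalling, none passed 1.2-fold, with a median of 0.0041. They included Mtor (0.25), Eif4ebp1 (-0.17) and Larp1 (0.15).

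Within the core, the 19 Diamond-Blackfan members had a median of -0.047 with 17 below 0, and the 3 stalk members Rplp1 (-0.095), Rplp0 (-0.061) and Rplp2 (-0.055) a median of -0.061. The 4 members on the X chromosome had a median of -0.055, with Rpl10 at -0.099 and Rps4x at -0.08. Rpl36a stood at -0.032 and Rpl39 at 0.036.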

How the data were processed

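Both libraries were made from sorted GFP+Lin- cells with a 10x 3′ kit, per the labels' protocols. The deposited matrices hold raw UMI counts per gene and barcode. Cell Ranger 3.0.1 and GRCm38 are named in the submitters' processing notes, and Cell Ranger 6.0.2 in the matrix headers. The libraries totalled 131667969 (WT) and 120408100 (KO) UMIs. The annotation release and the treatment of multimapping reads are not given in the sources used here.

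Barcodes with under 500 genes or over 10% mitochondrial UMIs were left out, as were the highest Scrublet scores (0.8% per 1000 barcodes: 224 WT, 221 KO). Scrublet's own threshold marked 9 and 80. Cells were clustered jointly from 2000 variable genes without members, 30 components, 15 neighbours and Leiden resolution 1. Clusters were named where a class's markers had a median log2 fold of at least 1, with 3 detected in 25% of cells. UMIs were summed per library. Ratios have exact conditional binomial intervals, levels have exact Poisson intervals, and shares have Clopper-Pearson intervals. Where no cell qualified, the limit is 3 cells of the total, given beside the exact bound. Calls are folds, not tests. The calculation was tested on simulated data.

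Members, lists and rules were chosen with earlier results of these data known. Named genes were all members outside the core, the 6 highest and 6 lowest core ratios, the 2 highest and 2 lowest per large class, up to 4 departures per class, the 3 highest and lowest levels, and up to 4 genes per list. Some genes so picked are not reported here. As alternatives, cells needed 1000 genes and at most 5% mitochondrial UMIs, doublets stayed in, or values were scaled by TMM or by a median of ratios. Others were totals without mitochondrial, haemoglobin and immunoglobulin genes, means over cells, classes weighted alike, 50 CPM or no minimum, resolutions 0.5 and 2, and marker scores. Clusters weighted alike and leaving out cluster 13 were chosen after seeing the data. Positions came from GENCODE M21, which held all 96 members.

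Tools were Python 3.11.15, scanpy 1.11.5, numpy 2.4.6, scipy 1.17.1, pandas 2.3.3, leidenalg 0.10.2, biopython 1.88, matplotlib 3.10.9, R 4.3.3 and edgeR 4.0.16 (TMM factors only).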

Additional observations from a re-analysis of the deposited data

Results flagged for a closer look

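B cell-like cells stood apart from the other classes in sign. Their summed core share had a log2 ratio of KO over WT of 0.087 (0.072 to 0.10), with 66 WT and 48 KO cells, while the ratio was below 0 in the 9 other named classes with at least 10 cells in each library, from -0.20 to -0.0052. Single B cell-like cells had an SD of 9.26 points in WT and 7.30 in KO, against a difference of 1.29 points in the summed share. The interval leaves this spread out, and the difference between classes was not tested. The median depth of these cells, 4824 and 5708 UMIs, was the lowest of the named classes.

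Of the 5 symbols that the rule leaves out as pseudogenes, 3 had more than 5 UMIs in a library, and these 3 were higher in KO, unlike their parent genes. Of the others, Rpl9-ps1 had 5 UMIs in WT and 4 in KO and Rpl36-ps4 had 0 in both. Rpl9-ps6 went from 30.7 CPM in WT to 42.3 CPM in KO, a log2 ratio of 0.46 (0.40 to 0.53), while Rpl9 stood at 3466 and 3416 CPM. Rpl36a-ps1 went from 22.7 to 28.4 CPM (0.32, 0.25 to 0.40) and Rpl10-ps3 from 32.5 to 38.5 CPM (0.24, 0.18 to 0.31), while Rpl36a and Rpl10 had log2 ratios of -0.032 and -0.099. Rpl10-ps3 did not reach 1.2-fold, and 15% of all genes were higher by that much. Rpl9-ps6 was higher in KO in 19 of 20 clusters, Rpl10-ps3 in 18 and Rpl36a-ps1 in 17. Rpl9-ps6 and Rpl10-ps3 lay above the core median in 20 of 20 clusters and Rpl36a-ps1 in 18. Over all cells the core median, -0.039, lay under the median of all genes, 0.06, so most genes lay above it. Reads of such copies cannot be separated fully from those of the parent.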

How the results depend on the processing

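The summed core ratio kept its sign in all alternatives run, except in monocyte-like cells with the stricter cell filter, and 0 core members passed 1.5-fold or departed by 1.5-fold in any alternative run. For all cells the log2 ratio of -0.046 was -0.045 with the stricter cell filter, -0.051 with doublets kept, -0.11 with TMM, -0.13 with a median of ratios, -0.055 without mitochondrial, haemoglobin and immunoglobulin UMIs, -0.044 as a mean over cells, -0.077 with classes and -0.064 with clusters weighted alike. In HSC/MPP-like cells (-0.059) the stricter filter gave -0.040, doublets kept -0.047, TMM -0.14, a median of ratios -0.16, the reduced total -0.056, means over cells -0.055, resolution 0.5 -0.062, marker scores -0.068 and clusters weighted alike -0.012. A median of ratios moved the median of all genes there by -0.10.

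In lymphoid progenitor-like cells (-0.078) doublets kept gave -0.058, TMM and a median of ratios -0.11 each, means over cells -0.096 and marker scores -0.027. The class was not found with the stricter filter or at resolutions 0.5 and 2, so these gave no value. In megakaryocyte-like cells (-0.20) the values were -0.19 with the stricter filter, with marker scores and without cluster 13, -0.17 with doublets kept, -0.25 with TMM and with clusters weighted alike, -0.26 with a median of ratios and -0.24 as means over cells. In monocyte-like cells (-0.0052) they were 0.0042 with the stricter filter, -0.0023 with doublets kept and with the reduced total, -0.0034 with TMM, -0.0082 as means over cells, -0.0080 at resolution 2 and -0.012 with marker scores. In neutrophil progenitor-like cells (-0.076) they were -0.098, -0.086, -0.031 and -0.033 for the stricter filter, doublets kept, TMM and a median of ratios. The reduced total gave -0.073, means over cells -0.087, resolutions 0.5 and 2 -0.090 and -0.087, marker scores -0.058 and clusters weighted alike -0.055. The cause of these shifts was not tested.

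At 1.2-fold, 1 core member (Rpl35, lower) passed with TMM, with a median of ratios and with classes weighted alike, against 0 otherwise. The gap between the highest and lowest class share (10.2 points WT, 11.3 KO) was 8.69 and 9.38 with the stricter filter, 10.5 and 11.0 with doublets kept, 9.61 and 10.4 at resolution 0.5, 8.90 and 10.4 with marker scores, and 11.1 in KO at resolution 2. Clusters weighted alike and the omission of cluster 13 were chosen after seeing the data. No paired analysis was possible because each genotype had 1 library, so no library could be left out either. Depth limits the classes of few cells and the members under 10 CPM.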
